A study of Mus musculus with 4 samples.

Results

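The 33 genes described here encode the folding, quality control and translocation machinery of the endoplasmic reticulum (ER) and the regulators of the unfolded protein response. They were taken by name from a list of that pathway, and all 33 were found among the 30905 genes measured. No expression value entered the rule, but earlier results of these data were known when the list was chosen. Single-cell RNA sequencing was carried out on mouse prostate in 4 groups of 1 library each, and the submitters' labels give no number of animals per library. The Trp53-intact libraries came from mice aged 4 months without and 5.5 months with the treatment that the labels call ADT, read here as androgen deprivation therapy. The Trp53-deleted libraries, labelled Trp53PC-/-, came from mice aged 3.5 months without and 5.5 months with ADT. The labels mark the deletion with PC, read here as restricted to the prostate, and the rest of the genotype, shared by all 4 groups, is not reported here. With 1 library a group there is no test of any difference between libraries. Effects of genotype, of ADT, of age and of the single library cannot be told apart, and every interval below covers counting error only.

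Secreted and membrane proteins enter the ER through the Sec61 channel and are folded there by chaperones and disulfide bond enzymes, and misfolded chains are returned to the cytosol for degradation. When unfolded chains pile up, the sensors IRE1 (gene Ern1), PERK (Eif2ak3) and ATF6 signal through the transcription factors XBP1, ATF4 and cleaved ATF6 to raise chaperone genes, slow translation and induce genes of amino acid supply. Prostate luminal cells secrete large amounts of androgen-dependent proteins into the gland lumen, plasma cells secrete immunoglobulin and fibroblasts secrete matrix, and the question put to the 33 genes is whether a loss of secretory output goes with a lower level of this machinery.

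Of 36326 barcodes, 28983 were kept (5379 to 8833 per library, median 4129 to 5660 unique molecular identifiers, UMIs, per cell). Pairs of libraries shared 12 to 31 barcodes. Cells were grouped by clusters built without the 33 genes or the lists of the wider secretory pathway, and classes were named from marker genes. The cargo genes were not left out of the clustering, so that differences in cargo between classes can be partly set by the grouping. Levels are CPM, the UMIs of a gene per 1000000 UMIs summed over the cells of a class in a library, so they are shares of that class's RNA. Where 4 values stand in a row, they give Trp53-intact mice without and then with ADT, followed by Trp53-deleted mice without and then with ADT. Trp53 itself was at 56.2, 90.8, 17 and 19.8 CPM in luminal progenitor-like cells, and at 43.6, 73.4, 45.7 and 44.7 CPM in fibroblast-like cells. Between these classes, the lower level of Trp53 in the Trp53-deleted libraries was thus seen in the epithelial class and not, without ADT, in the fibroblast-like class. In the Cdkn2a-high mesenchymal cells of the Trp53-deleted ADT library, described below, Trp53 was at 20.1 CPM. The luminal progenitor markers summed to 21314 to 30060 CPM in luminal progenitor-like cells, and the fibroblast markers to 273 to 459 CPM there.

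The promoters of the chaperone genes carry short elements through which the response acts, and windows around them are shown because members with such an element are set against the others below. RefSeq promoters (GRCm38.p6, 250 bases before to 50 after the start) were matched for 28 of the 33 members, and Manf, Hyou1, Atf6, Sec61a1 and Ero1l had no entry. The ER stress response element, CCAAT and CCACG with 9 bases of any kind between them, bound by ATF6 together with NF-Y, was found in 6 of the 28 members and in 0.119% of all 32851 promoters, with both strands searched. Its shorter form, ATTGG and CCACG with 1 base between them, was found in Herpud1 and Dnajb11 and in 0.0365% of promoters. The XBP1 core TGACGTG was found, among the members, in Hspa5 alone (2.01% of promoters), and the amino acid response core TGATGNAA, bound by ATF4 heterodimers, in Asns, Chac1, Herpud1 and Trib3 (3.97% of promoters). A match describes the letters in this window and shows no binding. The windows below run 5′ to 3′ on the strand of the gene, with the matched elements in capitals, and that of Hspa5 holds the XBP1 core and then the stress element. They lie at chr2:34771923-34772053 for Hspa5, chr15:88819510-88819548 for Creld2, chr12:17266481-17266519 for Pdia6, chr14:118937817-118937855 for Dnajc3 and chr19:6046522-6046560 for Syvn1, all on the plus strand. The window of Hsp90b1 lies at chr10:86705523-86705666 on the minus strand and holds 2 matches, and that of Herpud1, at chr8:94386307-94386397 on the plus strand, holds the amino acid core and then the shorter stress element. The windows of Chac1 (chr2:119351039-119351066, plus strand) and Asns (chr6:7693215-7693242, minus strand) hold the amino acid core. All 9 windows lie upstream of the RefSeq transcription start, and the element reads on the other strand in Creld2, in Chac1, for the second match of Hsp90b1 and for the amino acid core of Herpud1.
Hspa5: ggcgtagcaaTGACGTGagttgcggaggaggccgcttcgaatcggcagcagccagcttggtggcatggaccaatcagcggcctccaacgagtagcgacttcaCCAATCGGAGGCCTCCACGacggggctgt
Hsp90b1: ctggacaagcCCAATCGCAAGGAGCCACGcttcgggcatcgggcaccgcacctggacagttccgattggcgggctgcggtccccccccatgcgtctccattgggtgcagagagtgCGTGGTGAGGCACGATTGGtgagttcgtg
Creld2: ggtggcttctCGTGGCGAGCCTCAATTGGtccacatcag
Pdia6: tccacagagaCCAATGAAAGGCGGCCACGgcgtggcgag
Dnajc3: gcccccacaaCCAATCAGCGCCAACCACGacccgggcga
Syvn1: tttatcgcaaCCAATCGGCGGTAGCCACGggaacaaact
Herpud1: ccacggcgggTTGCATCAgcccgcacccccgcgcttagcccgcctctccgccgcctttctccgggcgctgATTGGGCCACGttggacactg
Chac1: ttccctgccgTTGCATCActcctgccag
Asns: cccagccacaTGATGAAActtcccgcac

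Among the epithelial classes, luminal progenitor-like cells (428, 267, 281 and 124 cells) are described first. In these cells prostate secretory message was nearly absent with ADT in both genotypes. The level of the ER machinery in this class was lower with ADT in the Trp53-intact pair, while in the Trp53-deleted pair it was near the level without ADT and its direction turned with the scaling. The 18 prostate secretory genes, fixed as a cargo list, summed to 3864, 52.9, 1441 and 61 CPM, and the 33 members summed to 6189, 4351, 4936 and 4771 CPM. The members' sum with ADT was 0.703-fold (95% counting interval 0.695 to 0.711) of that without it in the Trp53-intact pair and 0.967-fold (95% counting interval 0.951 to 0.982) in the Trp53-deleted pair. Scaled by the median of gene ratios in place of total UMIs, the ratios were 0.668 and 1.04, so that the Trp53-intact pair kept its direction and the Trp53-deleted pair did not. The difference between the genotypes was not tested. In the neutrophil-like cells of the same libraries, which serve as a guide to free RNA, the same 18 genes summed to 493, 17.7, 213 and 16.9 CPM. An Epcam-bearing cluster with Pate4 and Elf5 (0, 51, 2 and 144 cells) was named seminal vesicle-like and is outside these sums. In its Trp53-intact and Trp53-deleted ADT cells Hspa5 was at 795 and 676 CPM, Pdia6 at 678 and 451 CPM and Sec61b at 1055 and 871 CPM. Herpud1 was at 72.9 and 71.1 CPM there. The values above thus do not stand for all epithelial cells with ADT.

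In the Trp53-intact pair, 0 of 33 members were at least 1.5-fold higher with ADT and 10 were at least 1.5-fold lower on the log2 scale of CPM plus 5, against 6.03% and 5.28% of all genes measured. The log2 ratio was below 0 for 30 of the 33, with a median of -0.50, and the median over all genes was 0.05. In the Trp53-deleted pair, 1 member was higher and 2 were lower, against backgrounds of 6.11% and 7.63%, with a median of -0.18 beside -0.08 over all genes, so that members were called no more often than other genes in that pair. Taking the 2 pairs, which share no library, 22 of 33 members lay below 0 in both, 3 lay above 0 in both and 8 took opposite signs. Herpud1 alone was at least 1.5-fold lower in both. The shares of all genes that lay on the same side or were lower in both pairs are not given. These overlaps are thus not set against a background.

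Among the chaperones, 3 of 9 were lower with ADT in the Trp53-intact pair and none in the Trp53-deleted pair. Sdf2l1, which works with the co-chaperone Dnajb11 on newly made chains, was at 72.5, 30, 44.1 and 39.3 CPM, and its ratio with ADT in the Trp53-intact pair was 0.413-fold (95% counting interval 0.365 to 0.467). Manf (ENSMUSG00000032575, chr9:106838312-106891979, minus strand), a stress-induced ER protein that binds Hspa5, was at 329.6, 178, 223 and 219 CPM. The Trp53-intact library without ADT stood above the other 3 for both genes. Hyou1, the nucleotide exchange partner of Hspa5, was at 51.9, 28, 32.1 and 24.1 CPM and was the third chaperone past 1.5-fold. Hspa5 (ENSMUSG00000026864, chr2:34771970-34777547, plus strand), the central Hsp70 chaperone and the brake on the stress sensors, was at 852, 573, 531 and 598 CPM, a ratio of 0.672-fold (95% counting interval 0.652 to 0.692) and 1.13-fold (95% counting interval 1.08 to 1.18) in the 2 pairs. It lay just inside the 1.5-fold limit in the Trp53-intact pair and on the other side of 0 in the Trp53-deleted pair. Hsp90b1, the ER form of Hsp90, was at 719, 544, 462 and 539 CPM, and Creld2, a stress-induced ER protein, at 51.4, 33.8, 30.1 and 34.2 CPM. For Hspa5, Hsp90b1 and Creld2 as for Sdf2l1 and Manf, the highest level was that of the Trp53-intact library without ADT. The other co-chaperones, Dnajb9, Dnajb11 and Dnajc3, had log2 ratios of -0.49, -0.37 and -0.43 in the Trp53-intact pair and stayed within 1.5-fold in both.

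**Figure D1:**
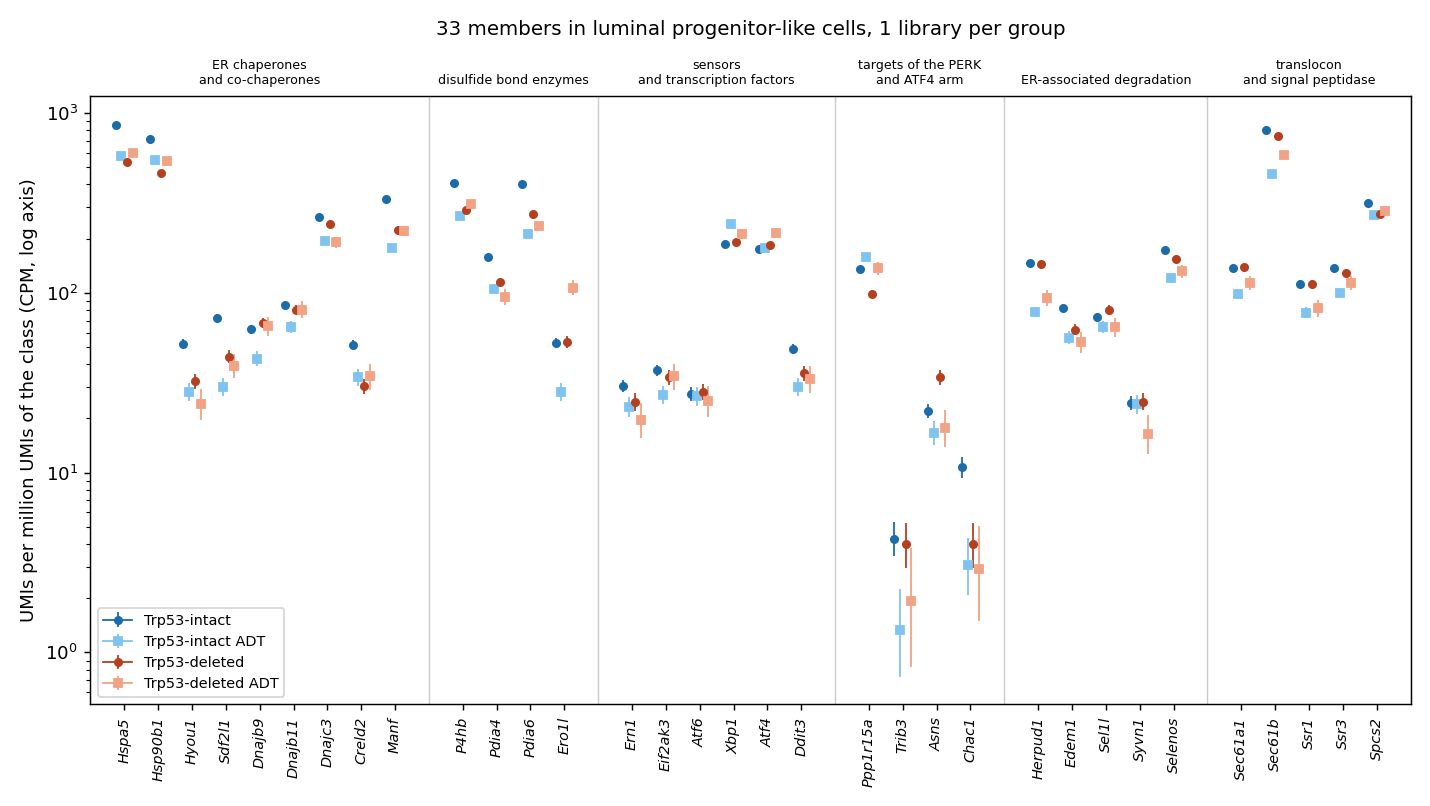
Levels of the 33 members in luminal progenitor-like cells of the 4 libraries, in CPM on a logarithmic axis, grouped by role. Points are class sums of 1 library each and bars are exact Poisson 95% intervals, and for Sdf2l1, Manf and Hspa5 the highest point is the Trp53-intact library without ADT.

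Of the disulfide bond enzymes, 3 of 4 were lower with ADT in the Trp53-intact pair. Pdia6, an isomerase, was at 403, 212, 274 and 236 CPM (0.525-fold (95% counting interval 0.501 to 0.551) with ADT, Trp53-intact), and P4hb, the main protein disulfide isomerase, was at 408, 267, 287 and 310.1 CPM. Pdia4 had a log2 ratio of -0.56. Ero1l (ENSMUSG00000021831, chr14:45283087-45318771, minus strand), the oxidase that reloads these enzymes, was at 52.7, 28.1, 53 and 107 CPM. Its ratio with ADT was 0.533-fold (95% counting interval 0.467 to 0.607) in the Trp53-intact pair and 2.01-fold (95% counting interval 1.78 to 2.27) in the Trp53-deleted pair, so that it lay past 1.5-fold in opposite directions. This difference between the pairs was not tested. Neutrophil-like cells held more Ero1l than these epithelial cells, at 363, 183, 369 and 235 CPM. With those levels taken off no member was higher in the Trp53-deleted pair. No Ero1l was then left in any library, so that this outcome was fixed in advance for Ero1l and says nothing of its direction. The part of neutrophil RNA in the Ero1l values was not tested.

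Of the 6 sensors and transcription factors 1 was lower with ADT in the Trp53-intact pair, and their median log2 ratio was -0.18 beside -0.54 for the chaperones, a difference that was not tested. Xbp1, whose mRNA is spliced by IRE1 and encodes the factor that drives ER expansion, was at 186, 241, 191 and 212 CPM, higher with ADT by 1.29-fold (95% counting interval 1.23 to 1.36) in the Trp53-intact pair but inside the 1.5-fold limit. The count does not separate spliced from unspliced Xbp1. Atf4, translated when PERK or another eIF2 kinase is active, was at 174, 178, 184 and 215 CPM. Both factors had their lowest level in the Trp53-intact library without ADT, where Hspa5, Hsp90b1, Sdf2l1 and Manf had their highest. Ddit3, the stress factor CHOP, was at 48.6, 30, 35.6 and 33 CPM and was the member of the 6 past 1.5-fold, on the same side as the lower chaperones. The sensors Ern1 and Eif2ak3 had log2 ratios of -0.33 and -0.39 with ADT in the Trp53-intact pair, and Atf6 was at 27.4, 26.5, 28.2 and 24.8 CPM in the 4 libraries.

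Among targets of the PERK and ATF4 arm, Chac1, which degrades glutathione, was at 10.7, 3.06, 3.98 and 2.89 CPM, and its ratio with ADT in the Trp53-intact pair was 0.287-fold (95% counting interval 0.192 to 0.418). Asns, which makes asparagine, was at 22, 16.6, 34 and 17.6 CPM and was lower with ADT in the Trp53-deleted pair (0.518-fold (95% counting interval 0.399 to 0.665)). Trib3, a pseudokinase that restrains the stress response, was near the limit of detection at 4.3, 1.34, 3.98 and 1.93 CPM. Ppp1r15a, the phosphatase subunit that restores translation, was at 135, 158, 98.5 and 137 CPM and had a log2 ratio above 0 in both pairs. Ppp1r15a is also an immediate response gene, and the 26 dissociation stress genes of a fixed list summed to 17300.3, 24417, 12736 and 20796 CPM in the same cells. Of these 26, 13 were higher and 4 lower with ADT in the Trp53-intact pair, and 17 were higher and 0 lower in the Trp53-deleted pair. The part of handling in the Ppp1r15a and Xbp1 levels was not tested. The 4 members with an amino acid core in their promoter had a median log2 ratio of -0.70 and -0.48 with ADT in the Trp53-intact and Trp53-deleted pairs, and 2 of the 4 were lower in each.

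Of the degradation genes, Herpud1 (ENSMUSG00000031770, chr8:94386438-94395377, plus strand), a scaffold of the ligase complex, was at 145, 78.2, 144 and 93.8 CPM, with ratios of 0.537-fold (95% counting interval 0.497 to 0.581) and 0.654-fold (95% counting interval 0.584 to 0.73) in the 2 ADT comparisons. Both ADT libraries lay below both libraries without ADT. The ligase Syvn1 was at 24.5, 23.9, 24.8 and 16.4 CPM and its partner Sel1l at 73, 64.3, 80.2 and 64.4 CPM, while Edem1 and Selenos had log2 ratios of -0.51 and -0.50 in the Trp53-intact pair. Of the translocon genes, Sec61b, a subunit of the entry channel, was at 807, 459, 739 and 585 CPM and its ratio with ADT in the Trp53-intact pair was 0.569-fold (95% counting interval 0.551 to 0.588). Ssr1, of the translocon-associated complex, was at 112, 77.6, 112 and 81.7 CPM, lower with ADT in both pairs but inside the limit. Sec61a1, Ssr3 and the signal peptidase subunit Spcs2 had log2 ratios of -0.46, -0.43 and -0.22 in the Trp53-intact pair.

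Genes of the wider secretory pathway, on lists fixed outside the 33 members, are read against 5.28% of all genes lower in the Trp53-intact pair and 7.63% in the Trp53-deleted pair. With ADT in the Trp53-intact pair, 4 of 23 other ER folding genes were lower and 0 higher (median log2 ratio -0.27). Dnajc10, a disulfide reductase, went from 412 to 137 CPM and Agr2, a disulfide isomerase of mucus-secreting cells, from 469.6 to 241 CPM. Both were also lower in the Trp53-deleted pair, Dnajc10 from 424 to 154 CPM and Agr2 from 482 to 186 CPM, where 3 of 23 were lower and 0 higher. Of the other translocation and glycosylation genes 2 of 26 were lower in the Trp53-intact pair and 0 of 26 in the Trp53-deleted pair, with 0 higher in each. Of the ER to Golgi transport genes 4 of 34 and 1 of 34 were lower, with medians of -0.29 and -0.27. Of the other degradation genes 1 of 18 and 1 of 17 were lower. For several of these counts, among them those of the degradation genes in both pairs and of the translocation and transport genes in the Trp53-deleted pair, the share lay near or under that of all genes. The other ATF4 and stress response genes were mixed, with 2 higher and 3 lower of 29 in the Trp53-intact pair and 4 higher and 1 lower of 28 in the Trp53-deleted pair. Atf3, an immediate stress factor, was higher in both, from 862 to 2003 CPM and from 958 to 1451 CPM, and Phgdh, of serine synthesis, was lower in both, from 58.8 to 22.6 CPM and from 69.5 to 34.2 CPM.

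Prostate cargo was not the main secreted message of these cells. The 22 mucosal and defence genes summed to 33166, 19391, 29059 and 19301 CPM, so that they too were lower in both ADT libraries. When the cells of a library were ordered by their share of mucosal cargo and divided into 4 bins of equal size, the members per 1000000 UMIs outside that cargo were 5968, 6167, 6258 and 7306 from the lowest to the highest bin in the Trp53-intact library. The corresponding values were 4077, 4419, 4478 and 4840 in the Trp53-intact ADT library, 4903, 4872, 4882 and 5870 in the Trp53-deleted library and 3988, 4824, 5203 and 5399 in the Trp53-deleted ADT library. In each of the 4 libraries the bin with the most cargo held the highest level of the members. Each bin of the Trp53-intact ADT library nevertheless lay below each bin of the Trp53-intact library.

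Without ADT, the Trp53-deleted luminal progenitor-like cells also held less of the module than the Trp53-intact ones, by 0.798-fold (95% counting interval 0.79 to 0.805). Here 6 of 33 members were lower and 0 higher (background 2.46% and 3.41%), with a median log2 ratio of -0.13 against 0.11 for all genes. Of the 6, 5 were chaperones, namely Creld2, Hspa5, Sdf2l1, Hsp90b1 and Hyou1 (log2 ratios -0.68, -0.68, -0.66, -0.63 and -0.62), and the last was Chac1 (-0.80). In the Trp53-deleted library without ADT 25.7% of barcodes exceeded the limit of 20% mitochondrial UMIs and were removed, against 8.39% to 13.9% in the other libraries. Over cells with at most 10% mitochondrial UMIs 9 members were lower and 0 higher, with the shares of all genes at that limit not given. Between the ADT libraries the sum was 1.1-fold (95% counting interval 1.08 to 1.12) in the Trp53-deleted one. There only Ero1l passed 1.5-fold (higher, log2 ratio 1.75, background 4.26%), 0 members were lower (background 3.16%), and the median was 0.07 beside -0.01 for all genes. With neutrophil-like levels taken off, the counts of lower members in luminal progenitor-like cells went up to 18 and 8 in the ADT comparisons and 15 in the genotype comparison without ADT, and at a 2-fold limit they went down to 1, 0 and 0. The shares of all genes under these settings are not given. The members summed to 3907, 4214, 5552 and 4583 CPM in neutrophil-like cells. The levels taken off thus include transcripts that neutrophils may make themselves, and the first counts are no measure of free RNA.

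**Figure D2:**
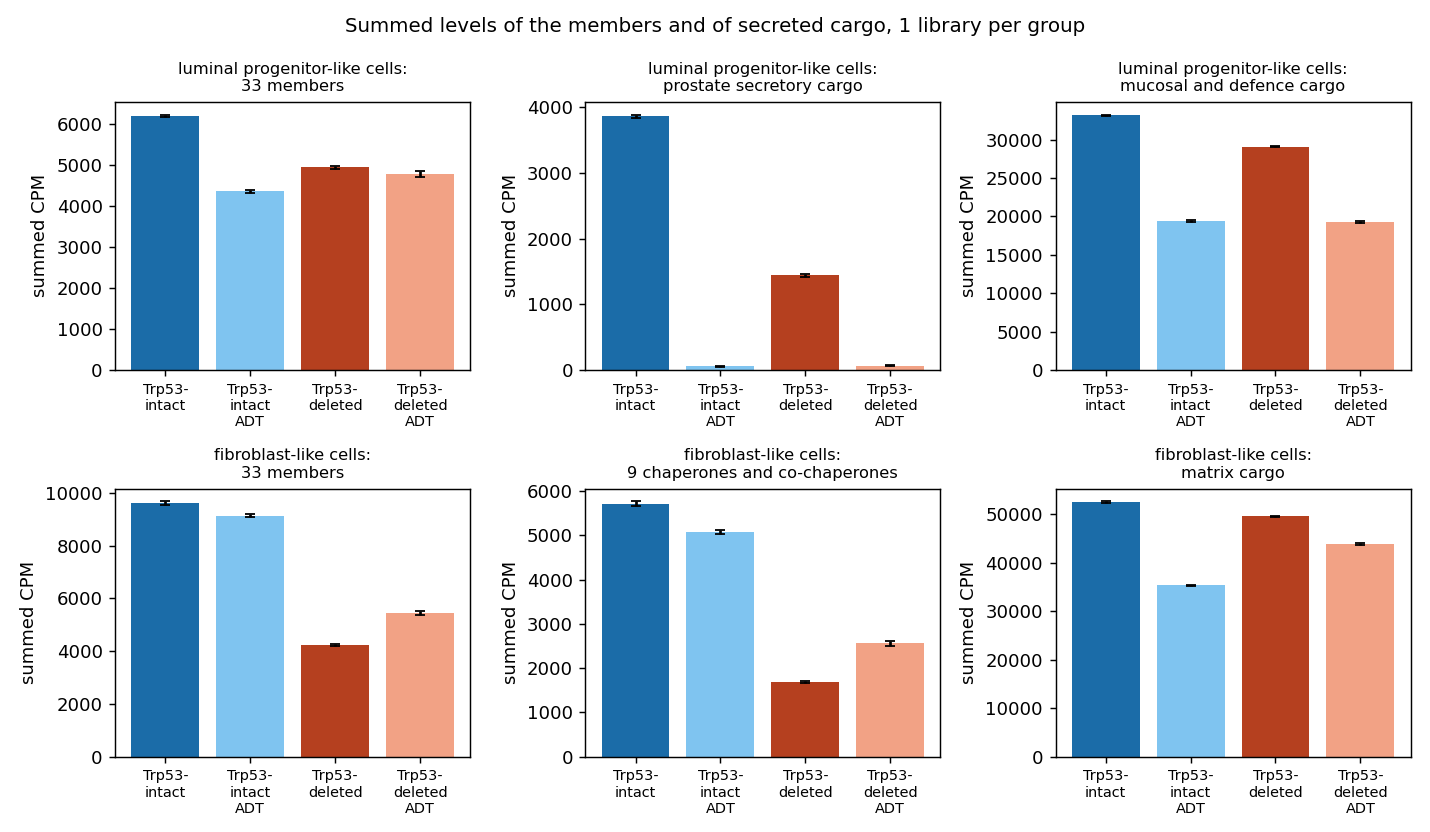
Summed levels in CPM per library for luminal progenitor-like cells (upper row: 33 members, prostate secretory cargo, mucosal and defence cargo) and fibroblast-like cells (lower row: 33 members, 9 chaperones, matrix cargo). In the upper row the Trp53-intact library without ADT is the highest of 4 in each panel, and in the lower row the members and chaperones are lower in both Trp53-deleted libraries than in both Trp53-intact ones while summed matrix cargo is not.

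Basal-like cells (165, 189, 92 and 40 cells) held no member past 1.5-fold with ADT in the Trp53-intact pair. Their prostate cargo summed to 310.0, 19.7, 109 and 18 CPM. Their members summed to 4343, 3939, 3245 and 4227 CPM. With ADT, 0 of 31 measured members passed 1.5-fold in the Trp53-intact pair (background 7.68% higher and 5.27% lower), with a median log2 ratio of -0.14. Hspa5 was at 663, 598, 356 and 524 CPM and Sdf2l1 at 34.8, 28.8, 14.3 and 61.6 CPM. In the Trp53-deleted pair 6 of 31 were higher and 2 lower (background 7.97% and 29.9%). Without ADT, 9 of 31 were lower and 3 higher in the Trp53-deleted library (background 5.6% and 25%), and 6 of the 9 were chaperones, Hspa5 among them (0.536-fold (95% counting interval 0.489 to 0.588)). Within a library, luminal progenitor-like cells exceeded basal-like cells at 16 of 33 members in each library without ADT, and 0 were lower. With ADT they exceeded them at 6 of 32 (Trp53-intact) and 6 of 31 (Trp53-deleted), and 1 was lower in each. The backgrounds of genes higher in luminal progenitor-like cells were 18%, 16.3%, 16.6% and 23.6% in the order Trp53-intact, Trp53-deleted, Trp53-intact ADT and Trp53-deleted ADT, and those of lower genes were 13%, 17.8%, 12.4% and 13.7%. The members' shares of higher genes were thus above the background without ADT, and near it or under it with ADT.

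Luminal-like cells were the main bearers of prostate cargo and were nearly all in 1 library (1077, 14, 75 and 2 cells). In the Trp53-intact library their members summed to 7820 CPM against 6189 in luminal progenitor-like cells, a ratio of 1.26 (95% counting interval 1.25 to 1.28), beside 41788 against 3864 CPM of prostate cargo. Of 33 members 5 were higher and 3 lower (background 9.2% and 12.7%), with a median log2 ratio of 0.17 against -0.07 for all genes. Sdf2l1 was at 212 against 72.5 CPM, 2.93-fold (95% counting interval 2.65 to 3.22). Creld2 was at 144 against 51.4 CPM, Manf at 697 against 329.6 CPM, Hyou1 at 104 against 51.9 CPM, Pdia6 at 611 against 403 CPM and Pdia4 at 222 against 157 CPM, the last inside the limit. Hspa5 was at 1119 against 852 CPM. The higher members were thus 4 chaperones and a disulfide bond enzyme. The lower members were Ero1l (14.4 against 52.7 CPM), Chac1 (2.88 against 10.7 CPM) and Ppp1r15a (67.4 against 135 CPM), and Eif2ak3 was at 24.1 against 37 CPM. The transcription factors Xbp1, Atf4 and Ddit3 had log2 ratios of 0.09, -0.14 and 0.14. Median depth differed widely, at 1079 UMIs in luminal-like and 35822.5 in luminal progenitor-like cells, and with doublets kept the counts were 2 higher and 5 lower with a median of -0.23.

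Within the luminal-like class of that library the members were highest where cargo was highest. In 4 bins of 269 or 270 cells ordered by the share of prostate cargo, the members per 1000000 UMIs outside that cargo were 4392, 5172, 5536 and 11117. The step lay between the third and the highest bin, where cargo ran from 2.38% to 36.25% of UMIs. Set against luminal progenitor-like cells, a comparison chosen after these values were seen, the highest bin had 12 members higher and 3 lower of 33 (background 8.12% and 16.8%) and a median log2 ratio of 0.46. There Hspa5 was at 1637 against 852 CPM, Manf at 996 against 329.6 CPM, Sdf2l1 at 321 against 72.5 CPM and Creld2 at 213 against 51.4 CPM. Xbp1 was at 179 against 186 CPM, so that these chaperones passed 1.5-fold while the total mRNA of this regulator lay inside that limit. Median depth was 1267.5, 907, 775 and 1759 UMIs from the lowest to the highest bin, and its part in the order was not tested. Plasma cell RNA was present in the class, where immunoglobulin chains summed to 14410.5 CPM. At the ratio of members to immunoglobulin seen in plasma-like cells this would carry 256 of the 7820 CPM, and immunoglobulin was at 1505 CPM in the highest bin.

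In the Trp53-deleted library the 75 luminal-like cells showed another picture. Their members summed to 3980 CPM against 4936 in luminal progenitor-like cells, with 1 of 33 higher and 13 lower (background 7.9% and 30.7%). Sdf2l1 was the member that was higher, at 114 against 44.1 CPM, while Hspa5 was at 253 against 531 CPM. The 12 luminal markers summed to 100437 CPM in these 75 cells, against 41129 CPM in the Trp53-intact luminal-like cells, whose members summed to 7820 CPM. Between these libraries the higher level of luminal markers thus went with the lower level of the members. The bins by cargo, of 18 or 19 cells, held members at 3841, 3768, 3958 and 4926 per 1000000 UMIs outside the cargo. The bin with the most cargo was again the highest of 4. The 14 and 2 luminal-like cells of the ADT libraries were too few for a comparison.

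**Figure D3:**
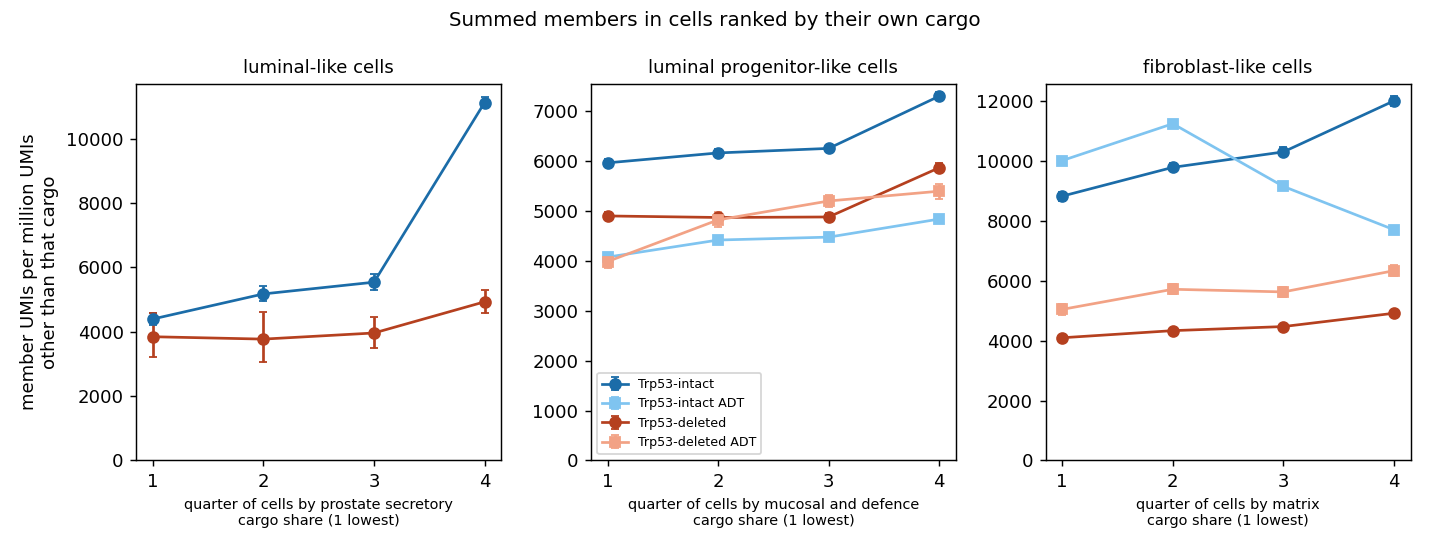
Members per 1000000 UMIs outside the cargo in 4 bins of cells ordered by the share of cargo UMIs, in luminal-like cells (prostate cargo), luminal progenitor-like cells (mucosal cargo) and fibroblast-like cells (matrix cargo), 1 line per library with Poisson 95% intervals. The highest bin of luminal-like cells in the Trp53-intact library stands at 11117, and the fibroblast-like lines of both Trp53-deleted libraries lie below those of both Trp53-intact libraries in each bin.

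The largest differences of the module between genotypes were in fibroblast-like cells (1142, 1103, 1563 and 478 cells). Their members summed to 9605, 9135, 4225 and 5437 CPM and their 9 chaperones to 5715, 5080.5, 1697 and 2564 CPM, while the 40 matrix genes of a fixed cargo list summed to 52526, 35354, 49600.2 and 43847 CPM. Without ADT the members' sum in the Trp53-deleted library was 0.44-fold (95% counting interval 0.435 to 0.445) of that in the Trp53-intact library, and matrix cargo was 0.944-fold. With ADT the ratios were 0.595-fold (95% counting interval 0.585 to 0.605) for the members and 1.24-fold for matrix cargo. By gene, 13 of the 40 matrix genes were lower and 3 higher in the Trp53-deleted library without ADT, against 4.65% and 10.6% of all genes, and 4 were lower and 16 higher with ADT. The near equal sum without ADT thus held many lower matrix genes. In the same cells the dissociation stress genes summed to 25588, 37665, 18004 and 24868 CPM and immunoglobulin to 764, 207, 341 and 2357 CPM, and their part in the result was not tested.

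Without ADT, 16 of 32 measured members were lower in the Trp53-deleted library and 0 were higher (background 4.65% and 10.6%), with a median log2 ratio of -0.59 beside 0.15 over all genes. All 9 chaperones were among the 16. Over cells with at most 10% mitochondrial UMIs 17 members were lower and 0 higher, with the shares of all genes at that limit not given. Manf was at 948, 672, 142 and 302 CPM, 0.15-fold (95% counting interval 0.142 to 0.158) in the Trp53-deleted library. Creld2 was at 165, 155, 22.1 and 52 CPM (0.133-fold (95% counting interval 0.116 to 0.152)) and Sdf2l1 at 124, 105, 16.8 and 37 CPM (0.135-fold (95% counting interval 0.116 to 0.158)). Hspa5 was at 2105, 2128, 541 and 958 CPM (0.257-fold (95% counting interval 0.25 to 0.264)). For these 4 genes both Trp53-deleted libraries lay below both Trp53-intact ones. Hyou1 was at 76.2, 100.3, 16 and 20.3 CPM, Hsp90b1 at 1511, 1163, 527 and 650.0 CPM and Dnajb11 at 136, 172, 47.4 and 84.7 CPM, in the same order of genotypes. The other lower members were Pdia6 and Pdia4 (log2 ratios -1.71 and -1.30), Spcs2 and Sec61b (-1.07 and -1.05), Edem1 and Selenos (-0.95 and -0.82) and Xbp1 (-0.62). None of Atf4, Ddit3, Asns, Ppp1r15a and Trib3 passed the limit. Atf4 was at 204, 452, 197 and 236 CPM, Ddit3 at 52.9, 51.1, 38.1 and 74.7 CPM, Asns at 20.1, 44.1, 12.1 and 14 CPM and Ppp1r15a at 269, 369.5, 204 and 318 CPM. Chac1, with fewer than 20 UMIs, was not measured.

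**Figure D4:**
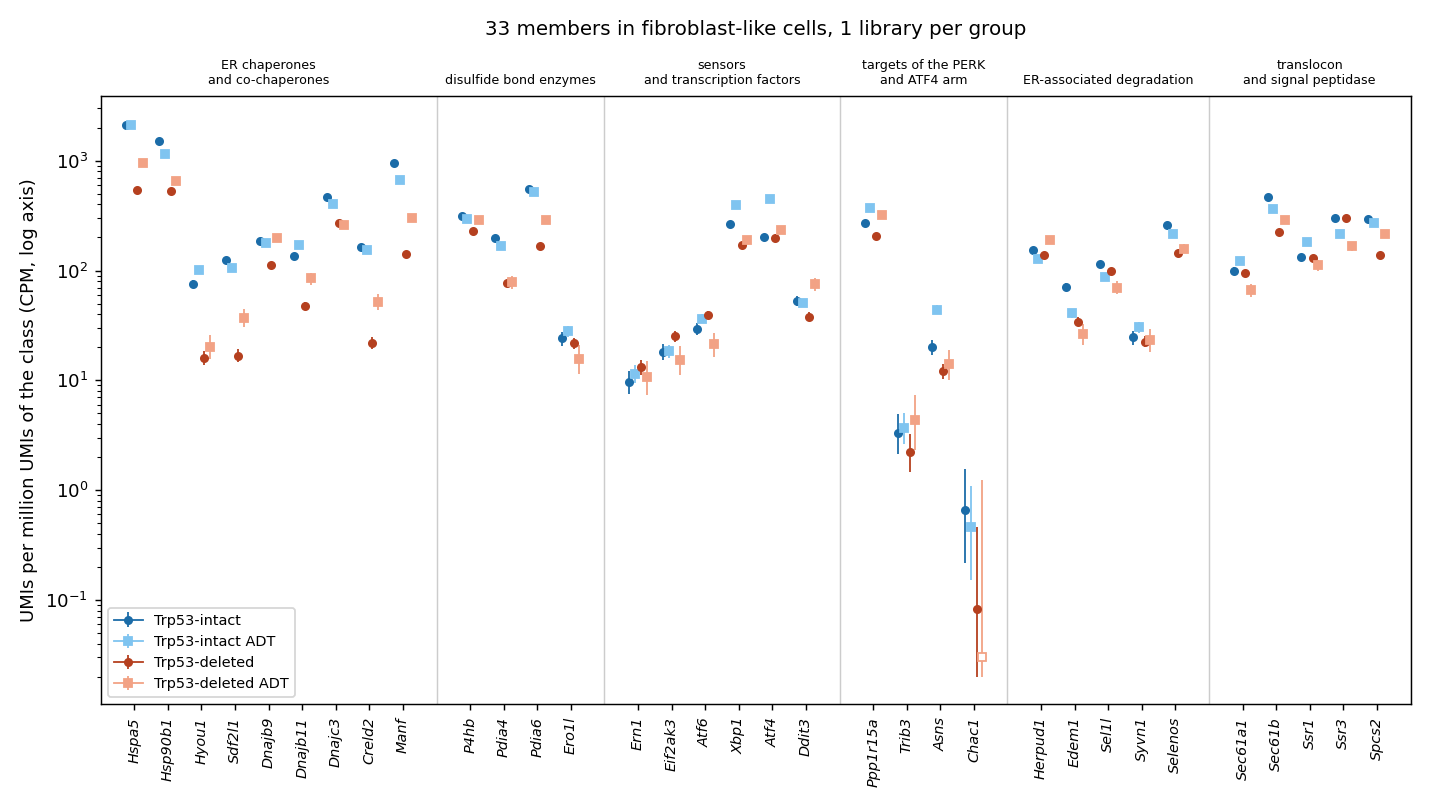
Levels of the members in fibroblast-like cells of the 4 libraries, in CPM on a logarithmic axis, grouped by role, with exact Poisson 95% intervals. An open marker at the bottom stands for no UMI (Chac1 in the Trp53-deleted ADT library), and Hspa5, Manf, Creld2 and Sdf2l1 lie lower in both Trp53-deleted libraries.

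The 8 members with an ER stress element of either form in their promoter window had a median log2 ratio of -1.47 in this comparison, and 6 of the 8 were lower. The other matched and measured members had a median of -0.46, and 8 of 19 were lower. Hspa5, Hsp90b1, Creld2, Pdia6, Dnajc3 and Dnajb11 were the 6, and Syvn1 and Herpud1 the others, with log2 ratios of -0.10 and -0.14. All of the 6 but Pdia6 are chaperones, and every chaperone was lower here, also Sdf2l1 and Dnajb9, whose windows held no such element. Element and role thus cannot be told apart, and the difference between the groups was not tested. Between the ADT libraries the medians were -0.83 and -0.33. In luminal progenitor-like cells with ADT, in the Trp53-intact pair, the median was -0.49 in both groups.

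The lower level without ADT held in each of the 4 fibroblast-like clusters taken alone. In the largest, marked by Sult1e1 and Col6a5 (885 and 1001 cells), the members' sum was 4151 against 9779 CPM, with 16 of 32 lower and 0 higher. In the cluster of Lgr5 and Wif1 it was 4399.6 against 8236 CPM with 17 of 30 lower, in that of Ptx3 and Tnfaip6 4289.9 against 9495 CPM with 16 of 31 lower, and in that of Apod and Mmp3 3912 against 9855 CPM with 11 of 17 lower. Their Trp53-intact and Trp53-deleted cells numbered 44 and 223, 200 and 314, and only 13 and 25, in this order. The backgrounds of lower genes were 6.17%, 9.82%, 7.57% and 25.8% in the same order. The counts of higher members were 0, 2, 1 and 0 (background 11.8, 30.6, 13.3 and 22%). Hspa5 went from 2118 to 508 CPM, 1396 to 425 CPM, 2189 to 667 CPM and 2235 to 569.9 CPM in these clusters. Trp53 was not lower in the fibroblast-like cells of this library, as given above.

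The genotype difference with ADT rested on which fibroblast-like cells were counted. Over the class, 17 of 32 members were lower and 0 higher (background 9.24% and 10.9%), with a median log2 ratio of -0.65 beside 0.02. Hyou1 (0.203-fold (95% counting interval 0.154 to 0.263)), Creld2 (0.335-fold (95% counting interval 0.283 to 0.395)) and Hspa5 (0.45-fold (95% counting interval 0.433 to 0.468)) were among them, with Xbp1, Atf4 and Asns (log2 ratios -1.04, -0.92 and -1.37). The Trp53-intact ADT cells were mostly of the Apod and Mmp3 cluster (817 of 1103), and the Trp53-deleted ADT cells were spread over it (172), the Lgr5 and Wif1 cluster (244) and others. Within the Apod and Mmp3 cluster 18 of 32 were lower and 0 higher, and Hspa5 went from 2286 to 1039.9 CPM. Within the Lgr5 and Wif1 cluster 4 of 31 were lower and 2 higher, and Hspa5 went from 1169.7 to 885 CPM. Within the Sult1e1 and Col6a5 cluster 1 of 21 was lower and 1 higher. The backgrounds were 12.7, 11.6 and 17.8% for lower and 9.63, 13.5 and 20.1% for higher genes, in this order. With the unnamed Mfap4 and Cxcl14 cluster counted as fibroblast-like, 7 members were lower, and with doublets kept, 6, with the shares of all genes not given for either.

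The ADT comparisons of fibroblast-like cells were not alike in the 2 genotypes, and this was not tested. In the Trp53-intact pair 2 of 32 members were higher and 1 lower (background 8.49% and 7.03%), with a median log2 ratio of -0.06. The higher ones were Atf4 (2.22-fold (95% counting interval 2.1 to 2.35)) and Asns (2.2-fold (95% counting interval 1.83 to 2.66)), and the lower one was Edem1, which trims mannose from misfolded glycoproteins, at 70.6, 40.8, 34.2 and 26.3 CPM. Xbp1 was at 268, 393, 173 and 189 CPM and Ssr1 at 132, 183, 129 and 112 CPM. Hspa5 did not differ beyond 1.5-fold (1.01-fold (95% counting interval 0.991 to 1.03)). The class was made up mainly of the Sult1e1 and Col6a5 cluster without ADT and of the Apod and Mmp3 cluster with it. With ADT 16 of 30 members were lower and 4 higher within the Lgr5 and Wif1 cluster (background 17.7% and 22.6%), with Manf from 924 to 350.3 CPM. Within the Sult1e1 and Col6a5 cluster, of 57 cells with ADT, 15 of 31 were lower and 2 higher (background 25.1% and 19.9%). In the other clusters the share of higher members did not exceed the background. Within the Apod and Mmp3 cluster, of 13 cells without ADT, 9 of 32 were higher and 2 lower (background 46.5% and 16%). Within the Ptx3 and Tnfaip6 cluster 6 of 31 were higher and 0 lower (background 20.1% and 8.23%). The median log2 ratios in these clusters were 0.17 and 0.10, beside 0.48 and 0.21 for all genes.

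In the Trp53-deleted pair 10 of 32 members were higher with ADT in fibroblast-like cells and 2 were lower (background 7.82% and 11.3%), with a median of 0.26. Creld2 (2.36-fold (95% counting interval 1.92 to 2.88)), Manf (2.13-fold (95% counting interval 1.96 to 2.31)), Sdf2l1 (2.2-fold (95% counting interval 1.73 to 2.79)) and Ddit3 (1.96-fold (95% counting interval 1.66 to 2.3)) were higher, and so were Hspa5, Dnajb9, Dnajb11, Pdia6, Ppp1r15a and Spcs2 (log2 ratios 0.63 to 0.82). Ssr3, at 300.0, 217, 304 and 166 CPM, and Atf6, at 29.4, 36.5, 39.4 and 21.3 CPM, were lower, while Eif2ak3 and Sec61a1 had log2 ratios of -0.57 and -0.48. Within clusters the counts of higher members were 13 of 28 (Apod and Mmp3), 9 of 31 (Sult1e1 and Col6a5) and 10 of 31 (Lgr5 and Wif1), with 1, 3 and 5 lower (background 26.2, 12.7 and 8.51% higher and 16.7, 28.3 and 22.4% lower). The median log2 ratios were 0.48, 0.17 and -0.02, beside 0.07, -0.15 and -0.20 for all genes. In the Lgr5 and Wif1 cluster 14 members lay above 0 and 17 below. With ADT, Trp53-deleted fibroblast-like cells also held macrophage markers at 5754 CPM and plasma cell markers at 1153 CPM, against 2366 and 130 CPM without ADT, and their part in the result was not tested.

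The other secretory lists in fibroblast-like cells ran the same way without ADT. In the Trp53-deleted library 9 of 24 other ER folding genes were lower and 0 higher, with Calr, the calcium-binding lectin chaperone, from 972 to 344 CPM and Pdia3 from 477 to 218 CPM. Of the other translocation and glycosylation genes 13 of 26 were lower and 0 higher, with Sec61g from 1072 to 396 CPM. Of the degradation genes 3 of 18, of the ER to Golgi genes 7 of 34 and of the ATF4 and stress response genes 5 of 29 were lower, and 1 gene of the last list was higher. These counts stand beside 4.65% of all genes lower, and 11 of the 26 dissociation stress genes were lower as well, with 0 higher. Within a library, bins of fibroblast-like cells ordered by matrix share held members at 8829, 9792, 10307 and 12013 per 1000000 UMIs outside the cargo (Trp53-intact), 10018, 11250, 9155 and 7708 (Trp53-intact ADT), 4097, 4335, 4471 and 4916 (Trp53-deleted) and 5045, 5717, 5629 and 6338 (Trp53-deleted ADT). In 3 of the 4 libraries the bin with the most matrix cargo held the highest level of the members, and in the Trp53-intact ADT library it held the lowest. These bins pool fibroblast-like clusters that differ in matrix message. As a mean over cells, Col1a1 was at 361 CPM in the Apod and Mmp3 cluster and at 1630 CPM in the Sult1e1 and Col6a5 cluster. The part of cluster and of depth in the order of the bins was not tested.

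The lower level in the Trp53-deleted library without ADT was not shared by every cell class. The members summed to 4489, 4860.1, 3424 and 5254 CPM in endothelial-like cells, 4877, 4539.7, 3986 and 5593 CPM in smooth muscle and pericyte-like cells and 6026, 4551, 4295 and 4814 CPM in macrophage-like cells. The Trp53-deleted library was the lowest of 4 in each of these classes, as in fibroblast-like and basal-like cells. In T-like cells the sums were 3377, 2942, 3209 and 3751 CPM and in neutrophil-like cells 3907, 4214, 5552 and 4583 CPM, where the same library was the highest. The larger share of barcodes over the mitochondrial limit in this library, given above, goes with these sums, and its part in them was not tested. The macrophage-like class was a cluster of 444 cells led by cell cycle genes such as Mki67 and Top2a. Larger clusters that best matched macrophages, of 2684 and 1827 cells, stayed unnamed and are not in its sums.

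Cdkn2a-high mesenchymal cells, a cluster with high Cdkn2a, Vim and Col1a1 and little Epcam or Ptprc, were found in the Trp53-deleted ADT library (639 of 640 cells). Trp53 was at 20.1 CPM in the Cdkn2a-high cells and at 44.7 CPM in the fibroblast-like cells of that library. The classes compared here thus differ in Trp53 level too, and its part in the result was not tested. The members summed to 8032 CPM in the Cdkn2a-high cells against 5437 CPM in the fibroblast-like cells of that library. This was a ratio of 1.48 (95% counting interval 1.45 to 1.5), beside 38024 against 43847 CPM of matrix cargo. Of 33 members 14 were higher and 5 lower (background 23.6% and 20.1%), with a median log2 ratio of 0.33 against 0.05. Asns was at 92.6 against 14 CPM, 6.62-fold (95% counting interval 4.89 to 9.19). Sec61b was at 904 against 290.0 CPM, Ssr3 at 417 against 166 CPM, Pdia6 at 824 against 292 CPM, P4hb at 806 against 288 CPM and Sdf2l1 at 104 against 37 CPM. Translocon subunits, disulfide bond enzymes and chaperones were thus among the higher members. Hspa5 (1143 against 958 CPM), Atf4 (238 against 236 CPM) and Ddit3 (73.1 against 74.7 CPM) lay inside the limit. Chac1 was at 3.8 CPM in the Cdkn2a-high cells (220 of 57886856 UMIs) and had no UMI among the 3000016 of the fibroblast-like cells, so that it was near the limit of detection. The lower members were Ppp1r15a (66 against 318 CPM), Dnajb9 (64.7 against 199 CPM), Herpud1 (100.2 against 188 CPM), Dnajc3 (155 against 261 CPM) and Xbp1 (124 against 189 CPM). Median depth was 81967 UMIs against 5880, and its part in the result was not tested. When the members were allowed to shape the clusters, 8 were higher and the median was -0.06. The unnamed Mfap4 and Cxcl14 cluster of that library (293 cells) was not counted as fibroblast-like here. Its Hspa5, Hsp90b1 and Manf were at 1379, 1092 and 627 CPM, against 1143, 766 and 624 CPM in the Cdkn2a-high cells. Its Pdia6, Sec61b and Asns were lower than there, at 577, 569 and 24.9 CPM. A shallow unnamed cluster led by Crabp1, Ctsk and Cdkn2a held 1807 cells of that library (median depth 1171 UMIs). It was counted in neither class, and whether it belongs with the Cdkn2a-high cells was not settled. Its Hspa5, Pdia6, P4hb, Sec61b and Asns were lower than there, at 551, 327, 295, 732 and 44.7 CPM. Its Atf6 and Edem1 were higher, at 35.7 and 69.9 CPM against 13.4 and 34.3 CPM. The excess of the members' sum is thus that of the 639 deep cells over the named fibroblast-like clusters only.

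Plasma-like cells (156, 51, 46 and 39 cells) held far more of the module than B-like cells, their precursors. Immunoglobulin chains took 612805, 582436, 647659 and 635826 CPM, so members are given here per 1000000 UMIs without them. On that scale they summed to 28116, 34517, 28084 and 27653, against 3041, 3068, 2794 and 3719 in the B-like cells of the same libraries. Of the measured members 28 of 32, 28 of 31, 31 of 32 and 27 of 31 were higher in plasma-like cells, against backgrounds of 22.9%, 21.5%, 21.6% and 23.1% of all genes. The counts of lower members were 1, 1, 0 and 0 (background 25.8, 31.8, 33.2 and 37%). Xbp1, which plasma cells need for secretion, stood at 2955, 2982, 3353 and 3528 in plasma-like cells and 54, 64.4, 47.9 and 60.6 in B-like cells. Creld2 stood at 1116, 1434, 672 and 1211 in plasma-like cells and 24, 17.3, 17.4 and 21.9 in B-like cells, and Sdf2l1 at 732, 717, 625 and 738 in plasma-like cells and 23.3, 22.1, 24 and 27.1 in B-like cells. Edem1 stood at 986, 715, 1628 and 791 in plasma-like cells and 42.8, 44.8, 43.7 and 27.1 in B-like cells, Sel1l at 604, 636, 1149.7 and 451 in plasma-like cells and 28.5, 37.5, 40.4 and 27.1 in B-like cells and Hsp90b1 at 6201, 8771, 4582 and 5301 in plasma-like cells and 337, 373, 334 and 426 in B-like cells. Each of these was higher in all 4 libraries. Hspa5 stood at 2017, 3416, 1974 and 2056 in plasma-like cells and 363, 428, 308 and 613 in B-like cells. On the PERK side, Atf4 stood at 301, 407, 525 and 522 in plasma-like cells and 236, 242, 281 and 365 in B-like cells, past 1.5-fold in 2 of the 4 libraries, and Ddit3 at 71.2, 59.1, 102 and 111 in plasma-like cells and 74.3, 48, 27.7 and 73.4 in B-like cells, past it in 1. Ppp1r15a, at 153, 153, 159 and 155 in plasma-like cells and 251, 255, 147 and 161 in B-like cells, was the member that was lower by 1.5-fold, in both Trp53-intact libraries. Eif2ak3 stood at 55.2, 54.2, 99.9 and 111 in plasma-like cells and 42.8, 62.5, 53.6 and 103 in B-like cells. By plain CPM, with immunoglobulin in the totals, 24, 23, 24 and 21 members were higher (background 5.7, 5.51, 4.56 and 5.37%) and 4, 3, 1 and 4 lower (background 70.5, 71.3, 78.5 and 79.6%).

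**Figure D5:**
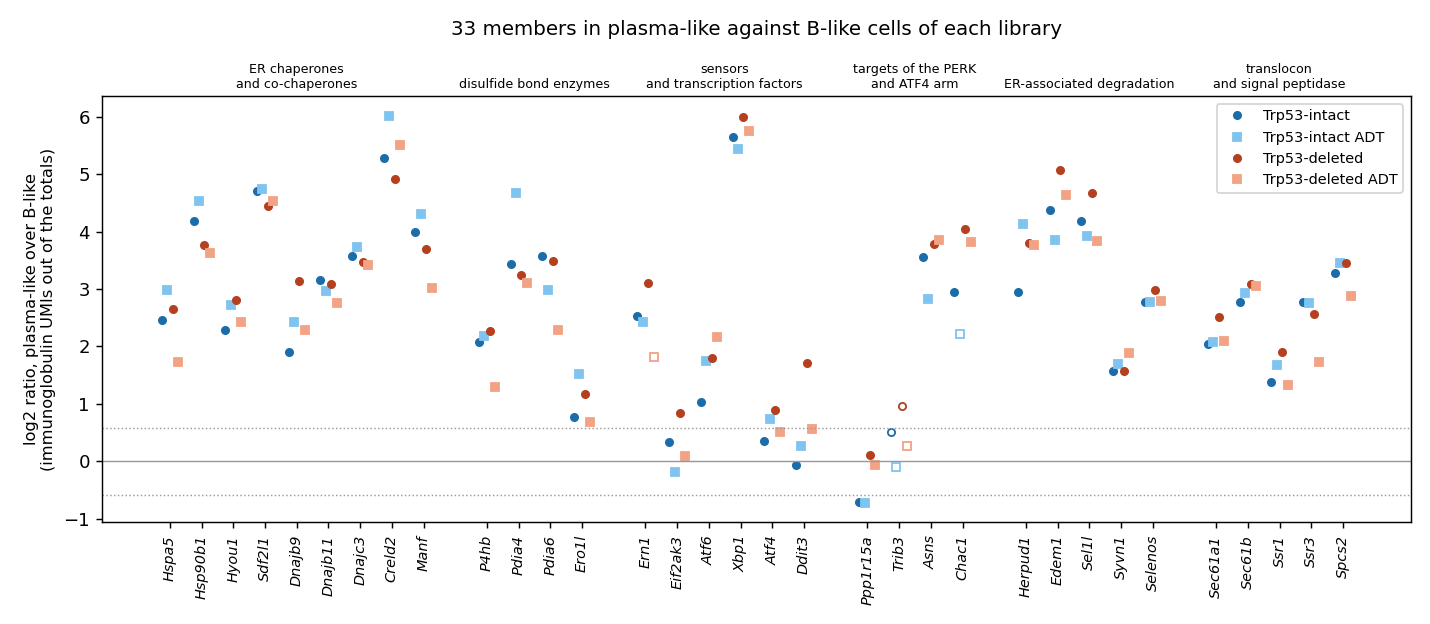
Log2 ratio of each member in plasma-like over B-like cells within each library, with immunoglobulin chains left out of the totals. Dotted lines mark 1.5-fold and open markers members with fewer than 20 UMIs, and Xbp1, Creld2 and Sdf2l1 stand far above the lines in all 4 libraries while Ppp1r15a lies at or below 0.11.

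Plasma-like cells differed less between libraries than from B-like cells. By CPM their members summed to 10886, 14413, 9895 and 10070.3. With ADT 8 of 32 were higher and 1 lower in the Trp53-intact pair (background 17.4% and 5.94%), and 1 was higher and 5 lower in the Trp53-deleted pair (background 12.8% and 18.9%). By genotype, 8 of 32 were higher and 1 lower in the Trp53-deleted library without ADT (background 10.1% and 9.01%), and 4 higher and 6 lower with ADT (background 7.95% and 27.9%). In the Trp53-intact ADT library the 13 cells with the lowest immunoglobulin share held members at 79335 per 1000000 UMIs other than immunoglobulin, against 20513 to 30216 in the other bins of that library. Those cells are few, and the bins of the other libraries lay between 25529 and 35382.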

How the data were processed

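Mouse prostate cells were profiled as UMI counts in 1 deposited matrix, made with Cell Ranger against mm10 per the submitters' processing notes, which give version 2.1.1, while 3.1.0 stands in the file header. Values are unnormalised whole counts as deposited by the authors. The 33 members, their roles and the other lists were chosen with earlier results of these data known.

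Barcodes under 500 UMIs or 200 genes, or above 20% mitochondrial UMIs, were removed. Doublet scores were computed per library and the top share at a rate of 0.008 per 1000 cells was left out (594, 480, 315 and 793 cells), because the caller's own limit marked 0, 0, 1 and 1. Clustering used 2000 variable genes, 40 components, 20 neighbours and Leiden resolution 1, and gave 33 clusters, of which 6 stayed unnamed. Members and the lists of the wider secretory pathway were left out of the variable genes, and cargo genes were not. These settings were chosen after the clusters and their names, but not the members' values, were seen. With ADT, Trp53-deleted plasma-like cells had a median of 1538 UMIs, against 23150 to 33657.5 in the other libraries.

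Class sums of UMIs in each library were scaled to CPM. Log2 ratios used a pseudocount of 5 CPM, a gene was measured with at least 20 UMIs over both sides, and a gene was called at 1.5-fold. Intervals are exact Poisson for levels and exact conditional binomial for ratios, at 95%. The calculation was tested on simulated counts. The 62 gene symbols that occur more than once were kept apart by identifier, and no member is among them. A median scaling of gene ratios moved the comparisons by up to 0.23 (fibroblast-like cells, genotype without ADT), 0.17 (luminal progenitor-like cells, genotype without ADT) and -0.10 (luminal progenitor-like cells, ADT, Trp53-deleted) on the log2 scale. All members are accounted for by role. Written out in all libraries are the 6 highest and 6 lowest in luminal progenitor-like cells in either ADT comparison, the 4 highest and 4 lowest in fibroblast-like cells, within a library the 6 highest and 4 lowest, and always Xbp1, Atf4, Ddit3 and Hspa5. Other members were named after their values were seen. Coordinates of genes are on GRCm38 from the reference annotation. Alternatives were another pseudocount, fold limit, scaling, filter, doublet rule, clustering and background. Software was Python 3.11.15, scanpy 1.11.5, scikit-learn 1.9.0, numpy 2.4.6, pandas 2.3.3, scipy 1.17.1, igraph 0.11.9 and matplotlib 3.10.9.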

Additional observations from a re-analysis of the deposited data

Results flagged for a closer look

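Ero1l, the ER oxidase, differed in opposite directions with ADT in luminal progenitor-like cells of the 2 genotypes. Its log2 ratio was -0.80 in the Trp53-intact pair and 0.94 in the Trp53-deleted pair. The difference between the pairs was not tested, since each rests on 1 library a side.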

How the results depend on the processing

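The counts of members past 1.5-fold were recomputed under 12 other settings fixed beforehand and 3 chosen after seeing the data. Of 256 counts, 205 stayed within 1.5 times the reported count and 51 did not. Except for single clusters and the highest bin by cargo, the shares of all genes under these settings are not given. Those counts are thus not set against a background of their own. No paired analysis was possible because each group is 1 library. With members allowed among the variable genes no luminal-like class was found, so that its counts were not computed there.

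In luminal progenitor-like cells, a 2-fold limit left 1 member lower with ADT in the Trp53-intact pair, 0 lower and 0 higher in the Trp53-deleted pair and 0 lower in the genotype comparison without ADT. With neutrophil-like levels taken off, 18 members were lower in the Trp53-intact pair, 8 lower and 0 higher in the Trp53-deleted pair, 15 lower and 1 higher by genotype without ADT, and 6 lower and 0 higher by genotype with ADT. Here and below, those levels may include the neutrophils' own member transcripts, so that such counts are no measure of free RNA. Scaling by the median of gene ratios gave 1 lower with ADT in the Trp53-deleted pair and 11 lower by genotype without ADT. Cells with at most 10% mitochondrial UMIs gave 0 lower in the Trp53-deleted pair and 2 higher by genotype with ADT. With doublets kept, 2 were higher in the Trp53-deleted pair, 1 by genotype without ADT and 2 with ADT, and a pseudocount of 1 CPM gave 1 and 2 higher in those genotype comparisons.

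Scaling by the median of gene ratios, applied to the ratios of the members' sums after seeing the data, gave 0.668-fold with ADT in the Trp53-intact pair, 1.04-fold in the Trp53-deleted pair, where the direction turned from 0.967-fold, and 0.708-fold by genotype without ADT in luminal progenitor-like cells. In fibroblast-like cells it gave 0.894-fold and 1.38-fold with ADT, and 0.374-fold without and 0.584-fold with ADT by genotype.

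In fibroblast-like cells, a 2-fold limit left 0 lower and 1 higher with ADT in the Trp53-intact pair, 0 lower and 2 higher in the Trp53-deleted pair and 8 lower by genotype with ADT. With neutrophil-like levels taken off there were 3 lower and 4 higher, 5 lower, and 1 higher in these comparisons. The genotype count with ADT went to 6 lower with doublets kept, 7 lower and 1 higher with members allowed among the variable genes, 7 lower with the Mfap4 and Cxcl14 cluster included, and 4 lower and 2 higher in the Lgr5 and Wif1 cluster alone. With ADT in the Trp53-deleted pair, the lower count was 1 with members allowed among the variable genes, 1 with the Mfap4 and Cxcl14 cluster included and 5 in the Lgr5 and Wif1 cluster alone. In the Lgr5 and Wif1 cluster alone the Trp53-intact pair had 16 lower and 4 higher, and the genotype comparison without ADT 2 higher. The count of 16 lower by genotype without ADT stayed within 1.5 times under every alternative run, from 11 to 20.

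For luminal-like against luminal progenitor-like cells, a 2-fold limit gave 1 lower and 3 higher, a pseudocount of 1 CPM 5 lower, doublets kept 5 lower and 2 higher, neutrophil-like levels taken off 9 higher, and the highest bin by cargo 12 higher. For Cdkn2a-high mesenchymal against fibroblast-like cells, a 2-fold limit and neutrophil-like levels taken off each gave 2 lower, and members allowed among the variable genes 8 higher. The cause of these shifts was not tested. Depth limits Chac1 and Trib3, and few cells limit the luminal-like class outside the Trp53-intact library.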
